A study of Mus musculus with 17 samples.

Results

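The stefin A and cystatin-like genes of mouse chromosome 16 were examined in DA1-3b cells, a murine Bcr-Abl+ leukaemia line, carrying forms of p65/RelA. Probes were taken when their gene name was Stfa1, Stfa2, Stfa2l1, Stfa3 or Gm5483 (now Cstdc4), or when their mm9 position lay between 36.1 and 36.5 Mb of chromosome 16. This gave 15 of the 39429 probes on the array, and all 15 lay inside the window. The members were chosen by their measured differences: Stfa1, Stfa2, Stfa2l1 and Cstdc4 stood higher with D361E than with WT, and Stfa2l1 higher with 1-361 than with WT. Both contrasts are therefore given as descriptions with no test.

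Cells had been transfected with plasmids for the residues 1-361 and 362-549 of p65 together (1-361+362-549, 3 arrays), for 362-549 (3 arrays), for 1-361 (3 arrays), for the point mutant D361E (4 arrays), or for wild-type p65 (WT, 4 arrays). The labels give the strain C3H eOuJ and the same medium for all 17 samples, and cells with an empty plasmid were not analysed here, so every group carried a p65 construct. The labels do not name separate cultures, clones or a time after transfection, so a p-value here reflects spread from array to array, possibly technical. In RNA of bulk cells, fewer cells expressing a gene and less RNA per cell cannot be told apart.

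Stefins are type 1 cystatins, small proteins that stay inside the cell and block cysteine cathepsins such as cathepsins B, H, L and S by filling their active site. Humans have 1 gene for stefin A, whereas the mouse carries a cluster of closely related copies that arose by duplication. In the mouse these genes are known from neutrophils and other myeloid cells and from the epidermis. RelA belongs to NF-kB: the Rel homology domain near its N terminus binds DNA, and its C-terminal end activates transcription.

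Because the genes are close copies, the probes that read them were compared first. Of the 105 pairs among the 15 probes, 3 shared a run of 15 bases or more. The probes of Stfa2l1 and Gm10092 matched at 50 of 60 bases, and the capitals below mark the 10 bases that differ. The probes of Cstdc4 and Stfa3 shared a run of 22 bases, shown in capitals. These 4 are printed because cross-hybridisation between copies bears on whether each gene was read separately.
Stfa2l1 probe: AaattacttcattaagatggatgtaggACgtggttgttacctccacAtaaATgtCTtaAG
Gm10092 probe: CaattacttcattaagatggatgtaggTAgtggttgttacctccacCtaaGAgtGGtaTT
Cstdc4 probe: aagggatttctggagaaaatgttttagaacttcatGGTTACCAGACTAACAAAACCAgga
Stfa3 probe, up to its stop codon: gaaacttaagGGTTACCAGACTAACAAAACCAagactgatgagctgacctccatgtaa

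On mm9 these probes lay at chr16:36160118-36161876 on the plus strand (Stfa2l1), chr16:36136075-36137745 on the plus strand (Gm10092), chr16:36188043-36188102 on the plus strand (Cstdc4) and chr16:36450693-36450752 on the minus strand (Stfa3). The positions of the Stfa2l1 and Gm10092 probes span 1759 and 1671 bases for 60 bases of probe, so each bridges a gap in the genome. Each of the first 3 has a reading frame with no stop codon, and the Stfa3 frame runs for 18 codons before its stop. The third pair, Csta2 (2010005H15Rik) and Cstdc5 (BC100530), shared a run of 25 bases. The Stfa2l1 and Gm10092 values, in particular, cannot be assigned to 1 gene each from these data.

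The stretches before the annotated starts of the 5 named genes are printed because the genes moved together. They come from RefSeq on GRCm38.p6, all 5 genes matched, and each is 250 bases ending just before the start. Capitals mark the 13-base run ACCTTTAAAACCC, the longest that all 5 share, and every GAGGAA on either strand (TTCCTC as printed), the core to which PU.1 and related ETS factors bind.
Stfa1 (chr16:36276898-36277147, plus strand): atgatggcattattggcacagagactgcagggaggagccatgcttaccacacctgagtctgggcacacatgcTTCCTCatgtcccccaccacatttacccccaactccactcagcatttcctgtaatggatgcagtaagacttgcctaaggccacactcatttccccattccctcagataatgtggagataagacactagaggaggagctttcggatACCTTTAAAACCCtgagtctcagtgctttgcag
Stfa2 (chr16:36408364-36408613, minus strand): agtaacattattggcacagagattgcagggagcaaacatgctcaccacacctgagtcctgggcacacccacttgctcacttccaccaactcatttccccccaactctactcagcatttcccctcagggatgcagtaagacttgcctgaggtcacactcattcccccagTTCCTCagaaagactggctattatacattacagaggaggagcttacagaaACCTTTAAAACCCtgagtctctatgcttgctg
Stfa2l1 (chr16:36156561-36156810, plus strand): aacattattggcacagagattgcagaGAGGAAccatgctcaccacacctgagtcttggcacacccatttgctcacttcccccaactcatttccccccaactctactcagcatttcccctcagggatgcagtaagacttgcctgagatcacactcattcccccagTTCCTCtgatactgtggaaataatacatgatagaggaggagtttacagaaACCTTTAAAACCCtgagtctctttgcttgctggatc
Stfa3 (chr16:36455393-36455642, minus strand): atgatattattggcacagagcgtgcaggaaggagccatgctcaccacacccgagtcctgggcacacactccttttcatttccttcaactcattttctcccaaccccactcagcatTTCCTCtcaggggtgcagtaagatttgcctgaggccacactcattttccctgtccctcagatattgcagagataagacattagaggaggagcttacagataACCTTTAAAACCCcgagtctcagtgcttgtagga
Cstdc4 (chr16:36183962-36184211, plus strand): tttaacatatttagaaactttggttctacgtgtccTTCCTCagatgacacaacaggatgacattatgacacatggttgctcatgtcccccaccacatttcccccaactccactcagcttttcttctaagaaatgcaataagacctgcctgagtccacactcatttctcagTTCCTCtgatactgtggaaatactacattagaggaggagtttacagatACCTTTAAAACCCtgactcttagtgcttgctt

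The shared run began 32 to 36 bases before the start in these 5 genes and was present in 8 of 32851 promoters of the same length (0.0244%). Of those 8, 6 belong to the cluster. Its presence in the 5 was fixed by how it was chosen. Csta3, in the same cluster, held it 80 bases before its start. Aligned pairs of the 5 sequences were 68.2% to 92.3% identical, whereas the Csta2 promoter was 38.6% to 47.5% identical to those of 8 other cluster genes. GAGGAA stood in 7 of 9 cluster promoters searched, against 23.3% of all promoters. The NF-kB site by its kB consensus was matched in 0 of the 9, against 7.3% of all, and TATAAA in 0 of 9, against 12.4%. TTCNNNGAA, the letters of STAT sites (both strands), stood in 1 of 9 (Cstdc4), against 7.0% of all. TTGCNNAA, bound by C/EBP factors, stood in 3 of 9, against 9.6% of all. A match is a description of the letters and not a bound site.

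Of the 15 probes, 10 entered the tests over 19774 probes, having been well above background throughout 1 group or more. The other 5, for Csta1, Gm4758, Cstdc6, Casr (the calcium-sensing receptor, in the window by position alone) and a transcript without a symbol that the array annotates as similar to stefin 3, were well above background in 1 of 85 readings. None of the 15 was saturated. Apart from NAP093863-001, which was well above background on every array, the cluster was mostly dim. Leaving out the unnamed probe NAP093863-001, the median processed signal of the other 9 tested probes was 14.2 with 1-361+362-549, 68.0 with 362-549, 130 with 1-361, 91.6 with D361E and 23.9 with WT. Readings well above background numbered 5 of 27, 25 of 27, 27 of 27, 35 of 36 and 15 of 36 in the same groups. Levels below are log2 of the processed signal relative to the 75th percentile of the array, as mean ± SD where a group is summarised. The lowest level well above background lay between -5.65 and -4.34 on single arrays, so values lower than that have no reliable order.

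These 9 probes shared 1 pattern over the 5 groups. In all 9 the group means of D361E, 1-361 and 362-549 took the first 3 places. Members had been chosen for high values with D361E and 1-361 against WT, so this order was partly set in advance. The share of all probes with the same order was not counted. Gm10092, Stfa2l1, Stfa1, Stfa2, Stfa3 and Csta3 passed the filter only through these 3 groups. NAP093863-001, left out here, did not follow the order. The WT mean was above that of 1-361+362-549 in all 9, but for Gm10092, Stfa2l1, Stfa2 and Stfa3 both groups were below background on every array, so their order there was not measured. For Stfa1 and Csta3 the 1-361+362-549 arrays were all below background, and only 2 of 4 and 1 of 4 WT arrays were well above it. Their order there is therefore not reliable. Cstdc5 and Csta2 had arrays of the 2 groups that overlapped. The highest mean belonged to 1-361 for 7 probes and to D361E for 2. The plot of levels by array shows the same split.

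**Figure D1:**
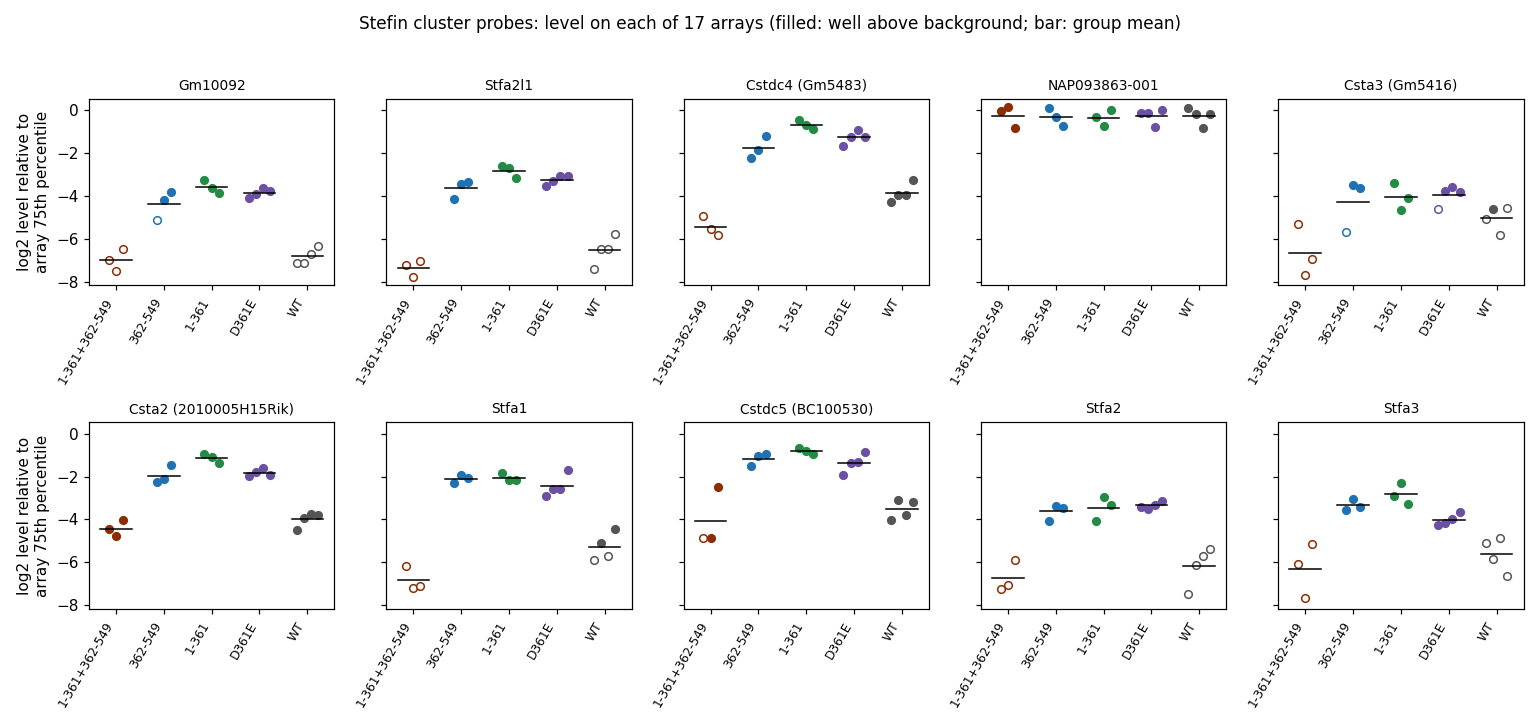
Level of each of the 10 tested probes on 17 arrays (log2 relative to the array's 75th percentile), by group; filled points are well above background, open points are not, and bars are group means. In 9 panels the 362-549, 1-361 and D361E means stand above those of WT and 1-361+362-549, while NAP093863-001 is level across the groups.

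Stfa1 is a stefin A gene of the mouse cluster. With 1-361+362-549 its levels were -6.17, -7.21 and -7.10. With 362-549 they were -2.31, -1.92 and -2.08, and with 1-361 they were -1.86, -2.17 and -2.16. D361E arrays read -2.89, -2.57, -2.58 and -1.71, and WT arrays read -5.87, -5.08, -5.72 and -4.45. The 1-361+362-549 arrays were all below background, and 2 of the 4 WT arrays were well above it. All 1-361+362-549 arrays read lower than every WT array, but values below background have no reliable order. No array of the other 3 groups came near either of these 2 groups. The order of the means between 1-361, 362-549 and D361E was not separated, since their arrays overlapped.

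Cstdc4, a stefin-like inhibitor gene, was, of the 5 named genes, the one well above background on most arrays. It stood at -4.96, -5.57 and -5.86 with 1-361+362-549, at -2.22, -1.85 and -1.20 with 362-549, and at -0.49, -0.68 and -0.91 with 1-361. D361E arrays read -1.70, -1.28, -0.92 and -1.24, and WT arrays read -4.29, -3.98, -3.98 and -3.25. The WT values were well above background on all 4 arrays, so its low level there was measured and not only bounded. Every 1-361 array was higher than every 362-549 and every D361E array, by a very narrow margin for D361E (lowest 1-361 array -0.91, highest D361E array -0.92).

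Stfa2l1 levels were -7.24, -7.77 and -7.03 with 1-361+362-549, -4.17, -3.46 and -3.34 with 362-549, and -2.63, -2.72 and -3.16 with 1-361. D361E arrays read -3.55, -3.29, -3.10 and -3.08, and WT arrays read -7.42, -6.48, -6.48 and -5.79. No array of WT or 1-361+362-549 was well above background and every array of the other 3 groups was. Its look-alike Gm10092 followed it closely (r = 0.986 over the 17 arrays), at -7.01, -7.53 and -6.50 with 1-361+362-549, -5.14, -4.21 and -3.83 with 362-549, -3.25, -3.64 and -3.87 with 1-361, -4.13, -3.93, -3.66 and -3.80 with D361E and -7.15, -7.13, -6.70 and -6.34 with WT.

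Stfa2, another stefin A copy, read -7.26, -7.04 and -5.90 with 1-361+362-549, -4.05, -3.36 and -3.46 with 362-549, and -4.09, -2.97 and -3.35 with 1-361. D361E arrays read -3.41, -3.51, -3.32 and -3.15, and WT arrays read -7.46, -6.14, -5.71 and -5.36. The WT and 1-361+362-549 arrays of Stfa2 overlapped and were all below background. Stfa3, at the far end of the cluster, read -6.06, -7.68 and -5.15 with 1-361+362-549, -3.57, -3.05 and -3.41 with 362-549, and -2.91, -2.31 and -3.28 with 1-361. For Stfa3, D361E arrays read -4.26, -4.16, -3.99 and -3.67, and WT arrays read -5.08, -5.87, -4.85 and -6.63. Here every D361E array was below every array of 1-361 and 362-549, by a narrow margin for 362-549 (highest D361E array -3.67, lowest 362-549 array -3.57).

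Of the other window probes, Csta2 was read by 10 spots per array and was above background on all 17 arrays. This made it the best measured of the 9 probes that shared the pattern. It read -4.44, -4.79 and -4.05 with 1-361+362-549, -2.26, -2.12 and -1.48 with 362-549, -0.95, -1.11 and -1.35 with 1-361, -1.99, -1.80, -1.61 and -1.91 with D361E and -4.51, -3.92, -3.75 and -3.81 with WT. The SD between its spots on 1 array had a median of 0.104 (0.0531 to 0.283), which covers technical error within an array only. Cstdc5 read -4.85, -4.88 and -2.48 with 1-361+362-549, against -4.02, -3.07, -3.77 and -3.20 with WT, so replicate 3 of 1-361+362-549 was higher than every WT array. Its levels were -1.49, -1.05 and -0.97 with 362-549, -0.66, -0.80 and -0.94 with 1-361, and -1.92, -1.36, -1.34 and -0.85 with D361E, all above both other groups. Csta3 overlapped between 362-549 (-5.69, -3.49 and -3.64) and WT (-5.07, -4.60, -5.83 and -4.60). Csta3 read -5.34, -7.68 and -6.96 with 1-361+362-549, below background on all 3 arrays. NAP093863-001, a probe on the minus strand between Cstdc4 and Csta3, averaged -0.27 ± 0.52 with 1-361+362-549 and -0.29 ± 0.38 with WT.

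The D361E and 1-361 contrasts chose the members and are given without a test. Against WT, the median difference of the 5 named genes was 2.82 for D361E (1.59 to 3.28) and 3.18 for 1-361 (2.70 to 3.70), where the median of all probes was 0.02 and 0.04. Taking genes below background in WT at their bound, the medians were 1.84 and 2.26. With normexp background correction on the 15 arrays where it could be fitted the medians were 1.09 and 1.35, against 3.09 and 3.39 from the 75th percentile on the same arrays. Of the 5 named genes Stfa3 differed least with D361E, by 1.59 ± 0.46 (SE), at least 1.97-fold, and by 2.78 ± 0.50 with 1-361, at least 4.50-fold. "At least" sets the mean of the brighter group against, per array of the group that was below background throughout, the higher of the probe's own signal and the lowest signal well above background.

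With 362-549, the C-terminal part of p65, most tested probes were higher than with WT, in a comparison on which the members were not chosen. Of the 10 tested probes, 7 were called higher and 0 lower by limma (adjusted p under 0.05 over all probes), where 0.207% of all 19774 probes were called higher. For 8 of the 10, no 362-549 array overlapped a WT array, where 6.46% of all probes were higher without overlap. The WT arrays are shared with the contrasts that chose the members. Stfa1 rose by 3.17 ± 0.35 (adjusted p = 0.000149), which is 9.03-fold, where 2 of the 4 WT arrays were below background. Cstdc4 rose by 2.12 ± 0.29 (0.00112) and Csta2 by 2.04 ± 0.23 (0.000209), 4.33-fold and 4.12-fold. Cstdc5 rose by 2.35 ± 0.46 (0.0265). Stfa2l1 was at least 2.71-fold higher (2.89 ± 0.32, adjusted p = 0.000149). For Stfa2 the bound was 2.77-fold (2.54 ± 0.43, 0.00864) and for Gm10092 1.62-fold (2.44 ± 0.31, 0.000589). Stfa3 was at least 3.15-fold higher on values that did not overlap, with an adjusted p of 0.0583, and Csta3 differed by 0.75 ± 0.58 (0.879). The median difference of the 5 named genes was 2.54, or 1.66 at the bounds, against 0.05 for all probes.

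Within the 3 slides that held both groups, 362-549 minus WT ranged from 2.14 to 3.80 for Stfa1 and from 1.03 to 2.78 for Cstdc4. With slide as a block, 5 of the 7 calls remained, and Cstdc5 (adjusted p = 0.196) and Stfa2 (0.114) did not pass. Cstdc5 also lost its call without any 1 of 5 arrays (362-549 replicates 1, 2 and 3, WT replicates 1 and 3), and Stfa2 without 362-549 replicate 2 (0.0566). With normexp background correction on the 15 arrays where it could be fitted, 4 of the probes were called.

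With both parts of p65 together, against WT, 2 of the 10 tested probes were called lower and 0 higher, where 2.87% of all probes were called lower. The same 2 were the ones lower without overlap, as 7.26% of all probes were. The WT arrays and the model are shared here too, so these calls are not independent of how the members were chosen either. For Stfa1 this rested partly on values below background in both groups, as only 2 of the 4 WT arrays were well above it. Cstdc4 fell by 1.59 ± 0.29 (limma adjusted p = 0.00353), at least 2.35-fold lower. Stfa1 differed by -1.55 ± 0.35 (0.0161), but its bound fell short of any change, so no fold is given. The other 8 probes did not pass, with Stfa2l1 at -0.81 ± 0.32 (0.193), Stfa3 at -0.69 ± 0.50 (0.513), Stfa2 at -0.56 ± 0.43 (0.544) and Csta2 at -0.43 ± 0.23 (0.364). Csta3 (-1.63 ± 0.58, limma adjusted p = 0.143), Cstdc5 (-0.55 ± 0.46, 0.581) and Gm10092 (-0.18 ± 0.31, 0.799) did not pass either. Both calls were lost with slide as a block (Cstdc4 0.0699, Stfa1 0.334), and only slide 3 held both groups, where the differences were -1.28 for Cstdc4 and -1.34 for Stfa1. Stfa1 also lost its call without 1-361+362-549 replicate 2 or WT replicate 2, and no probe was called (0 of 10) without scaling or with normexp.

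The differences between 1-361+362-549 and 362-549 used no array of the contrasts that chose the members. Their SE and p-values did, since the spread came from 1 model over all 5 groups. Gm10092 and Csta3, well above background on 2 of 3 362-549 arrays each, passed the filter only through 1-361 or D361E. The calls here are therefore not independent of how the members were chosen. Of the 10 tested probes, 9 were called lower and 0 higher, where 8.09% of all probes were called lower, and 8 were lower without overlap (15.7% of all probes). The probe not called was NAP093863-001 (0.07 ± 0.32, limma adjusted p = 0.898). Stfa1 was at least 8.64-fold lower (-4.72 ± 0.37, adjusted p = 9.14e-07) and Cstdc4 at least 10.2-fold (-3.70 ± 0.31, 1.6e-06). Csta2, measured on both sides, was 5.56-fold lower (-2.47 ± 0.25, 1e-05), and Cstdc5 7.45-fold (-2.90 ± 0.49, 0.00153), where 1 of the 3 1-361+362-549 arrays was below background. Stfa2l1, Stfa2, Stfa3, Gm10092 and Csta3 were at least 2.95-fold, 3.01-fold, 3.67-fold, 1.77-fold and 1.92-fold lower (adjusted p = 3.88e-06, 0.000482, 0.00242, 9.58e-05 and 0.0215). The median difference of the 5 named genes was -3.69 (-1.87 at the bounds), against -0.03 for all probes.

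No slide held both of these groups. With slide as a block 5 calls remained, and Csta3 (adjusted p = 0.253), Cstdc5 (0.149), Stfa2 (0.152) and Stfa3 (0.0518) did not pass. Csta3 also lost its call without 1-361+362-549 replicate 2, 362-549 replicate 2 or 362-549 replicate 3. The 1-361+362-549 arrays were the brightest as a group (75th percentile 1042 ± 185, against 678 ± 36.3 for 362-549) and differed from 362-549 at 2614 of all probes (13.2%), and the part of these in the cluster's differences was not tested.

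**Figure D2:**
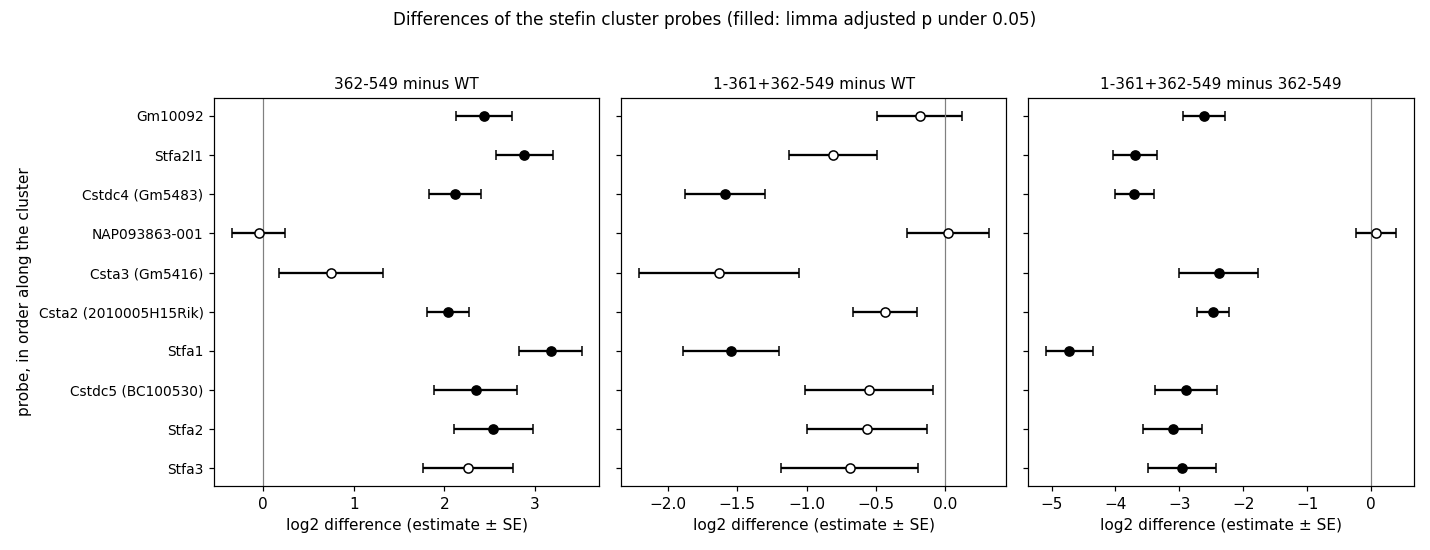
Log2 difference (estimate ± SE, limma) of the 10 tested probes in the 3 tested comparisons, in order along the cluster; filled points passed an adjusted p of 0.05. Called probes number 7, 2 and 9 from left to right, and NAP093863-001 stays at 0 in all 3 panels.

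Among the 3 groups with high levels the members differed less. Described without a test, 1-361 minus D361E had a median of 0.42 over the 5 named genes (-0.12 to 1.19), 362-549 minus D361E -0.28 (-0.47 to 0.68), and 1-361 minus 362-549 0.51 (0.04 to 1.07). Of the 10 probes, 3 had every 1-361 array above every D361E array, where 5.34% of all probes did so. For 362-549 against D361E, 1 probe (Stfa3) was higher without overlap (5.38%), and 4 had every 1-361 array above every 362-549 array (4.59%).

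The neighbouring genes were read for comparison. In the 500 kb on each side, 21 probes of 17 genes were tested. Of these, 0 were called in either direction for 362-549 against WT, with a median of 0.09 (-0.45 to 1.01). For 1-361+362-549 against WT, 1 was called higher, a probe of Parp9 (0.83 ± 0.14, limma adjusted p = 0.00177). The share of all probes called higher there is not given. None was called lower (2.87% of all probes were), and the range was -1.17 to 0.83. For 1-361+362-549 against 362-549, 3 were called higher (5.13% of all probes were) and 3 lower (8.09% of all probes were), with a median of 0.01 (-1.10 to 1.03). The nearest tested probe outside, that of Ccdc58 just before the window, differed by 0.18 ± 0.41 between 362-549 and WT.

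**Figure D3:**
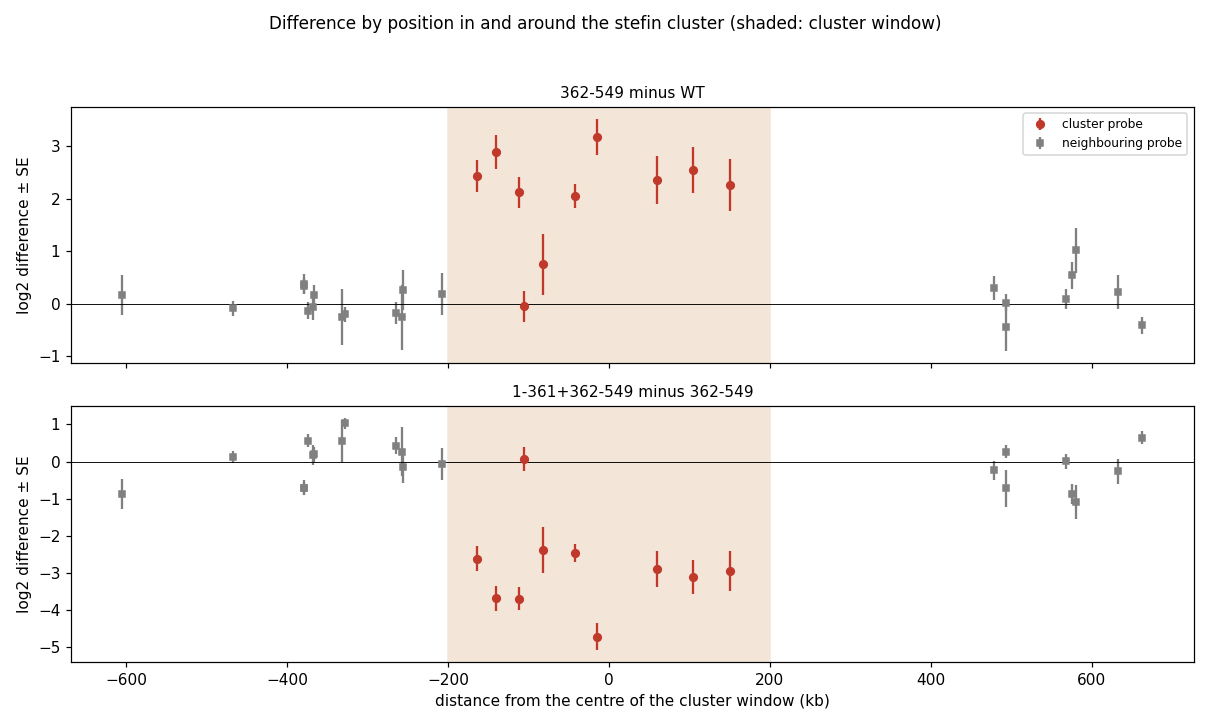
Log2 difference ± SE of each tested probe against its distance from the centre of the cluster window (kb), for 362-549 minus WT (top) and 1-361+362-549 minus 362-549 (bottom); the window is shaded. Cluster probes lie away from 0 except NAP093863-001, and Csta3 in the top panel is close to it, while the 21 neighbouring probes lie between -0.45 and 1.01 (top) and between -1.10 and 1.03 (bottom).

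Pairs of probes with long shared runs were set beside pairs with shorter ones, some of which also resemble each other (Cstdc5 and Stfa3 matched at 35 of 41 aligned bases). As a description over the same 17 arrays, which share slides and groups, the 3 pairs with a run of 15 bases or more had a median r of 0.94 (0.83 to 0.99). The 33 pairs with shorter runs had a median of 0.91 (0.65 to 0.99), and the 9 pairs with NAP093863-001 lay between -0.31 and -0.03. Because the r values include the group differences that chose the members, they cannot tell separate reading from cross-hybridisation.

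**Figure D4:**
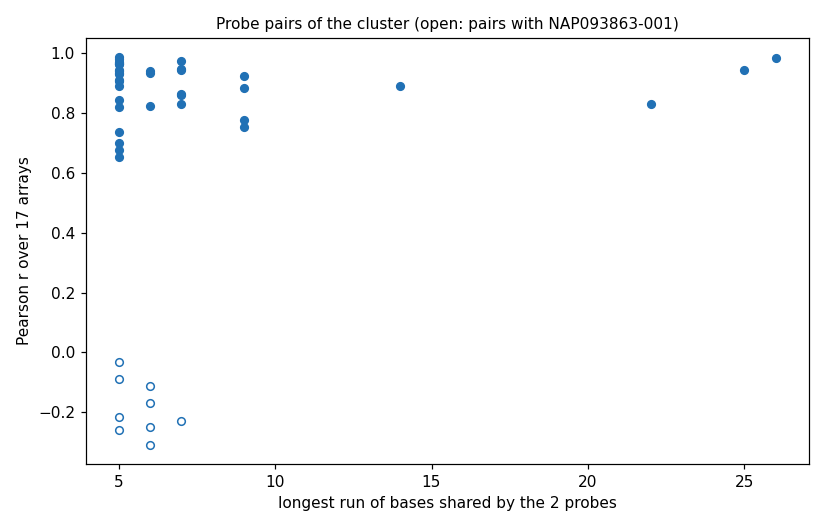
Pearson r over 17 arrays of each pair among the 10 tested probes against the longest run of bases the 2 probes share; open points are the 9 pairs with NAP093863-001. Pairs with short shared runs reach the same r, up to 0.99, as the 3 pairs with runs of 15 bases or more.

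The genes whose levels followed the mean profile of the 5 named members most closely were sought among 11370 genes over the 17 arrays. The 6 most alike were Cd163l1, a scavenger receptor gene (r = 0.937), Cfap74, a cilia-associated gene (0.922), Atpif1, an inhibitor of mitochondrial ATP synthase (0.912), Igf2r, the receptor that carries lysosomal enzymes (0.90), Sprn, a prion-like protein gene (0.899), and Scel, a cornified envelope gene (0.896). Cd163l1 averaged -7.18 ± 0.35 with 1-361+362-549, -3.27 ± 0.67 with 362-549, -2.40 ± 0.27 with 1-361, -4.02 ± 0.70 with D361E and -6.03 ± 0.83 with WT, and was below background on every array of the first and last of these. Igf2r averaged -3.60 ± 0.10, -2.45 ± 0.05, -1.06 ± 0.15, -1.94 ± 0.26 and -3.13 ± 0.07 in the same groups. A high r does not mean a change of like size: group means ran only from 6.13 to 6.86 for Cfap74 and from 5.86 to 6.18 for Atpif1. Scel was below background on every array of 1-361+362-549, 1-361 and WT, and passed the filter only through D361E. The 3 most opposite were Cd55b, a complement regulator (-0.872), Ephx2, the soluble epoxide hydrolase (-0.871), and Tgtp2, an interferon-inducible GTPase (-0.866). Tgtp2 averaged 2.12 ± 0.21 with 1-361+362-549 and 0.89 ± 0.23 with WT.

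**Figure D5:**
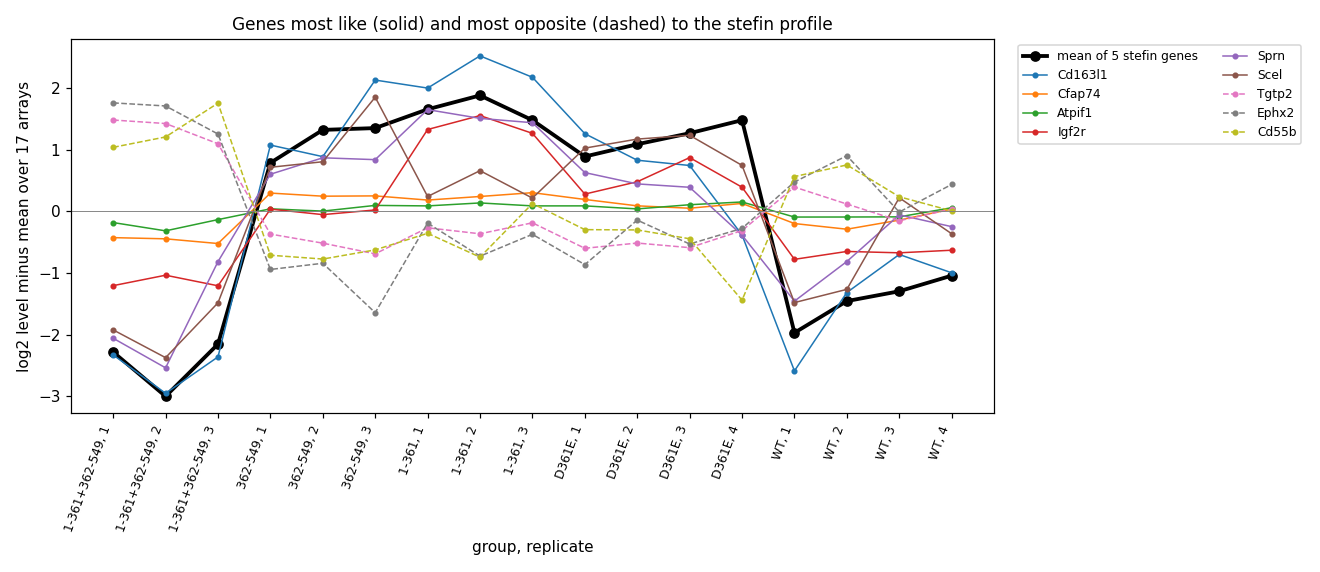
Mean of the 5 named stefin genes (black) with the 6 most similar (solid) and 3 most opposite (dashed) genes on each of 17 arrays, as log2 level minus the gene's mean. Stefin values are at or below -2.15 with 1-361+362-549 and run from -1.97 to -1.04 with WT, and are above 0 on every array of the other 3 groups.

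Other cystatins and the proteases that they block were read from a list. Of 14 type 1 cystatin genes measured, 9 were tested, 8 of them in the window. The ninth, Cstb (stefin B, expressed widely), was not called in any tested comparison and stood at 2.82 ± 0.06 with 1-361+362-549, 2.62 ± 0.22 with 362-549 and 3.08 ± 0.14 with WT. Of 14 secreted type 2 and type 3 cystatin genes, 2 passed the filter, Cst3 (cystatin C) and Cst7 (cystatin F), and 0 were called. Of 11 genes in a list of cysteine cathepsins and legumain, 4 were tested. Lgmn (legumain, an asparaginyl endopeptidase and no cathepsin) was higher with 1-361+362-549 than with 362-549, by 1.03 ± 0.12 (limma adjusted p = 6.57e-05), and than with WT, by 1.11 ± 0.12 (2.08e-05). Ctsb, Ctsc and Ctsz were not called, and Ctsh, Ctsl and Ctss did not pass the filter. Over all tested probes, 5.13% were called higher and 8.09% lower for 1-361+362-549 against 362-549. For 362-549 against WT 0.207% were called higher, and for 1-361+362-549 against WT 2.87% lower. The share called higher for 1-361+362-549 against WT is not given. The counts in these lists are too small to set against such shares.

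Markers of other cell types were read as lists. Over all tested probes, 0.207% were called higher for 362-549 against WT, and 2.87% lower for 1-361+362-549 against WT. For 1-361+362-549 against 362-549, 8.09% were called lower and 5.13% higher. Of 18 neutrophil markers 6 were tested, and the summed linear level of all 18 was 57.9 to 75.2 with 1-361+362-549, 85.0 to 102 with 362-549, 69.6 to 104 with 1-361, 72.3 to 117 with D361E and 71.8 to 89.7 with WT. Of the 6, 0 were called for 362-549 against WT and 1 was lower for 1-361+362-549 against 362-549, Cebpe (granulocyte transcription factor, -0.72 ± 0.21, limma adjusted p = 0.0362), which was also the 1 lower against WT (-0.77 ± 0.20, 0.036). The other 12, among them S100a8, S100a9, Ltf, Ngp, Camp, Mpo and Ly6g, did not pass the filter. S100a9, a calprotectin subunit of granulocytes, was nevertheless well above background on 2 of 3 362-549 arrays (mean level -4.20 ± 1.34) and 3 of 4 D361E arrays (-3.69 ± 1.53), and on 0 of 3 1-361+362-549, 0 of 3 1-361 and 0 of 4 WT arrays. Ngp, a neutrophil granule protein, was so on 2 of 3 1-361 arrays (-4.49 ± 1.45) and 3 of 4 D361E arrays (-3.38 ± 1.32), and on 0 arrays of the other 3 groups. Ly6g was not well above background on any array. Of 8 keratinocyte markers 3 were tested and 0 were called, and 0 of 5 fibroblast markers passed the filter. The 7 mast cell and basophil markers had a summed level of 0.273 to 0.408 with 1-361+362-549, 2.98 to 5.21 with 362-549, 4.88 to 8.81 with 1-361, 2.64 to 3.75 with D361E and 6.93 to 12.3 with WT. Of these, 3 were lower with 1-361+362-549 than with 362-549 (Cpa3, Cma1 and Fcer1a), 4 were lower with 1-361+362-549 than with WT (the same 3 and Mcpt8), and Cma1 was lower with 362-549 than with WT (-1.35 ± 0.26, limma adjusted p = 0.027). Of 9 macrophage markers 4 were tested, and Adgre1 (F4/80) was lower with 1-361+362-549 (-4.45 ± 0.26 against 362-549 and -3.48 ± 0.25 against WT).

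The 5 erythroid markers had a summed level of 14.7 to 22.3 with 1-361+362-549, 21.4 to 49.3 with 362-549, 28.4 to 32.8 with 1-361, 19.1 to 45.3 with D361E and 9.92 to 19.4 with WT, so their sums also lay mostly higher in the 3 groups with high stefin levels. Of these 5, 3 were tested, with a median difference from WT of 0.02 with D361E, -0.21 with 1-361 and 0.24 with 362-549. The sums, in which the brightest genes weigh most, therefore do not stand for the list as a whole. Hba-a1 (alpha globin) differed by 1.93 ± 0.44 between 362-549 and WT (limma adjusted p = 0.075), and 0 were called there. With 1-361+362-549, Epor was higher and Klf1 lower than with 362-549 and than with WT. Of all probes, 5.13% were called higher and 8.09% lower against 362-549, and 2.87% lower against WT. The share called higher against WT is not given. Of 6 T cell markers 5 were tested, and Cd3g, a chain of the T cell receptor complex, was higher with 362-549 than with WT (2.12 ± 0.39, 0.0148). Cd3g and Cd3d were lower with 1-361+362-549 than with 362-549 and than with WT. The list as a whole did not fall: the median difference of the 5 tested was -0.06 against 362-549 and 0.10 against WT. The summed T cell level was 3.14 to 5.68 with 1-361+362-549, 5.46 to 6.71 with 362-549, 6.53 to 8.61 with 1-361, 5.68 to 7.45 with D361E and 4.42 to 6.28 with WT. Of 6 B cell markers 1 was tested, Cd79b, which was higher with 1-361+362-549 than with 362-549 (0.70 ± 0.17, 0.0155). Of 8 haematopoietic identity genes 6 were tested, and Csf2rb, the shared beta chain of cytokine receptors, was lower with 1-361+362-549 (-0.98 ± 0.16 against 362-549 and -1.17 ± 0.15 against WT). The part of these markers in the cluster's levels was not tested.

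Rela itself, read by 1 probe, was at 4.86 ± 0.08 with 1-361+362-549, 4.83 ± 0.03 with 362-549, 4.78 ± 0.05 with 1-361, 4.74 ± 0.12 with D361E and 4.78 ± 0.08 with WT. Where that probe lies relative to the transfected parts was not looked up, so it checks no construct. Within groups, arrays correlated across probes at 0.965 to 0.995.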

How the data were processed

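RNA of 17 samples was read on 1-colour Agilent arrays. Per the file headers, the array design was 026655 with mm9 positions, the extraction protocol was GE1_107_Sep09, and the deposited intensity values are the background-subtracted processed signal on a linear scale. Agilent Feature Extraction, version 10.7.3.1, is named in the submitters' processing notes. The deposited table of the whole series equals these values (largest relative difference 0), so it holds no further scaling.

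Control and outlier spots were left out, log2 was taken, and each array's 75th percentile was subtracted. The 75th percentile was 636 to 1214 across arrays; precision is limited by how many arrays there are. Tests covered the 19774 probes that were well above background throughout 1 group or more, with limma 3.58.1 in R 4.3.3 (lmFit and eBayes; files read with data.table, version 1.17.8), in 1 model over 5 groups, with Benjamini-Hochberg adjustment within each contrast. RefSeq (GRCm38.p6) gave symbols and promoters. Sequences were compared with Biopython 1.88. The fit was tested on simulated data.

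Members and gene lists were chosen with earlier results of these data known. The named probes are all those of the window, with the brightest probe per gene, plus the 6 most and 3 least correlated genes and up to 4 members of each list by range of group means; genes behind counts of 5 or fewer were named after their values were seen. Replicate numbers follow deposit order. Rounds of the title numbers were checked as pairs: deviations of same-round arrays correlated at 0.144 to 0.726 for 1-361+362-549 and WT, at 0.182 to 0.445 for 1-361+362-549 and 362-549, and at 0.0628 to 0.630 for 362-549 and WT. By the rule that every pair exceed 0.1, the first 2 contrasts are paired and the third is not. Alternatives tried were quantile normalization, no scaling, normexp, other filters, 1 probe per gene, slide as a fixed or random block, the round as a block, and leaving out each array.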

Additional observations from a re-analysis of the deposited data

How the results depend on the processing

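The numbers of cluster probes called were 7 for 362-549 against WT, 2 for 1-361+362-549 against WT and 9 for 1-361+362-549 against 362-549. With normexp background correction (offset 50) all 3 counts were 0 and the median differences of the 5 named genes were 0.52 for D361E minus WT and 0.78 for 1-361 minus WT, where Stfa3 reversed to -0.14 in D361E minus WT. That correction failed on 2 arrays, 1-361+362-549 replicate 1 and WT replicate 4, where the first quartile of the corrected signal was 441 and 636, against 15.1 to 32.8 on the other 15. In an alternative chosen after seeing the data, normexp without those 2 arrays gave 4, 0 and 8 calls and medians of 1.09 and 1.35, while the 75th percentile on the same 15 arrays gave 7, 2 and 9 calls and medians of 3.09 and 3.39.

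Quantile normalization gave 1 call for 1-361+362-549 against WT, and no scaling gave 0, with a 1-361 minus WT median of 2.95 (no scaling shifted the median of all probes by 0.61 for 1-361+362-549 against 362-549). Requiring all arrays above background left 2 cluster probes, with 1, 0 and 1 calls, and none of the 5 named genes for a median. Slide as a fixed block gave 5, 0 and 5 calls. The replicate block (round of the titles) gave 7, 2 and 9 calls and changed no count. Leaving out 1 array gave 5 to 8, 1 to 3 and 8 to 9 calls, and medians of 2.45 to 3.09 and 3.02 to 3.39; without 1-361+362-549 replicate 2, the Stfa3 difference between 1-361+362-549 and WT reversed to 0.0042 (-0.69 with all arrays, -1.26 to 0.0042 over the arrays left out). None of the 20 groups of 4 arrays checked for a single far value had one. Groups of 3 arrays were not checked in this way. Among them, Cstdc5 with 1-361+362-549 read -4.85, -4.88 and -2.48, and Csta3 with 362-549 read -5.69, -3.49 and -3.64. Low signal over background limits all of these values.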
